A study of Mus musculus with 12 samples.

Results

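The 7 genes described here are *Srebf2*, which encodes the sterol-responsive transcription factor SREBP2, and 6 genes that SREBP2 is known to activate: *Hmgcs1*, *Idi1*, *Sqle*, *Lss*, *Cyp51* and *Insig1*. They were chosen by name, as the rows carrying these symbols in both deposited tables, and all 7 were found among the 41743 genes that the tables list. The tables hold RNA levels of 12 whole livers, from female mice that were 3 to 4 months old, in 4 groups of 3. YAP1 KO mice carried *Foxa3*-Cre, which acts in the foregut endoderm that gives rise to hepatocytes and bile duct cells, 2 floxed copies of *Yap1* and a floxed EYFP reporter, and their WT littermates were on the C57BL/6 background. In YAP1 KO TAZ Heterozygote mice, labelled YKTH, *Foxa3*-Cre was also used to delete *Yap1*, together with 1 copy of *Wwtr1*, the gene of TAZ. They were on a mixed background of C57BL/6 and FVB, as were their WT littermates. Whole tissue also holds macrophages, stellate cells and endothelial cells, and whether *Foxa3*-Cre acts in them is not given in the sources used here.

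SREBP2 is made as a precursor in the membrane of the endoplasmic reticulum, where it is bound by its escort SCAP. When sterols are scarce, SCAP carries it to the Golgi, proteases release its active part, and this part enters the nucleus and turns on the genes of cholesterol synthesis and of lipoprotein uptake. When sterols are plentiful, the INSIG proteins hold SCAP in the endoplasmic reticulum. The liver is a main site of cholesterol synthesis, and hepatocytes also remove cholesterol by turning it into bile acids.

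The promoters of the members were searched for letters through which SREBP2 and its partners are known to act. RefSeq start sites on GRCm38.p6 were found for 6 of the 7 members, all but *Sqle*. Each line below runs 5' to 3' on the strand of the gene and stops before the gene's annotated transcripts begin, with matches on either strand to a sterol regulatory element or its core, an NF-Y site, a GC box or an E-box in capitals. The letters searched are given after the sequences. The lines of *Hmgcs1*, *Srebf2*, *Lss* and *Insig1* are printed, and those of *Idi1* and *Cyp51* are not. Cut in the same way, the *Idi1* line holds no match and the *Cyp51* line a single GC box.
Hmgcs1 (chr13:119690101-119690350, plus strand): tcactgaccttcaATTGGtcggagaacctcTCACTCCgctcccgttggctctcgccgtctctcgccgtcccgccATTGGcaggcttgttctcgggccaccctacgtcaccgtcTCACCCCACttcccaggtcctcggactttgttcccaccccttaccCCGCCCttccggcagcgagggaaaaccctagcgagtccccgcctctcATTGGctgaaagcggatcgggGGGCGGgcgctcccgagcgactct
Srebf2 (chr15:82147019-82147180, plus strand): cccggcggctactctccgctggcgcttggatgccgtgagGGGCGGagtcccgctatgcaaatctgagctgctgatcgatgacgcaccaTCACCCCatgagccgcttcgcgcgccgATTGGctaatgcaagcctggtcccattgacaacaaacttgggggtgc
Lss (chr10:76531355-76531587, plus strand): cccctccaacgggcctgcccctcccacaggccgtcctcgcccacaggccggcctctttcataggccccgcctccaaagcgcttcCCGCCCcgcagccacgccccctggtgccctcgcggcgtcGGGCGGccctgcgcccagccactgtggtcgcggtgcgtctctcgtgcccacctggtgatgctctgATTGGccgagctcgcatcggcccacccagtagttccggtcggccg
Insig1 (chr5:28071162-28071362, plus strand): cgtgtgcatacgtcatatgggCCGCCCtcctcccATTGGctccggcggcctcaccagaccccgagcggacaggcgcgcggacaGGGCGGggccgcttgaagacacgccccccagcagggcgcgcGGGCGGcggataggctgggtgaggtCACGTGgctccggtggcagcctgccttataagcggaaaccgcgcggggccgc
In the table's windows, which run from 250 bases before the start site to shortly after it, CCAAT, the letters of NF-Y, and GGGCGG, a GC box, were found in 6 of 6 members. These letters are in 37.4% and 35.7% of the 32851 promoters of the table. The sterol regulatory element TCACNCCAC was found in *Hmgcs1* alone, as TCACCCCAC, and in 1.24% of all promoters. Its shorter core TCACNCC was found in *Hmgcs1* and *Srebf2* and in 15.6% of all promoters, and the E-box CACGTG in *Insig1* and in 7.15% of all promoters. These matches describe the letters only.

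The targeted gene was checked first. *Yap1* ranged from 28.2 to 30.5 TPM in WT (C57BL/6) and from 1.67 to 3.72 TPM in YAP1 KO livers. It ranged from 31.0 to 33.2 TPM in WT (mixed) and from 8.63 to 11.5 TPM in YKTH livers. *Wwtr1* ranged from 6.26 to 6.83 TPM in WT (C57BL/6), 13.3 to 16.7 in YAP1 KO, 7.73 to 8.38 in WT (mixed) and 11.5 to 14.1 TPM in YKTH livers, so this gene was not below the WT level in the libraries labelled as TAZ heterozygous, and YKTH is used below as their label. The authors reported that *Wwtr1* rises in mice without YAP. In the limma test described below, it was called higher in YAP1 KO livers (log2 fold change 0.73, adjusted p = 0.00186). It was not called in YKTH livers, where 2 of 13 alternative settings called it. TPM, the unit deposited, are scaled for gene length and to the same total in each library. Because TPM shift with the few most abundant genes, the tests used TPM divided by a scaling factor per library, and fold changes are on the log2(scaled TPM + 1) scale. Without that factor the median log2 fold change of all genes was 0.28 in YAP1 KO and 0.24 in YKTH livers; with it, both medians were -0.04. TPM are therefore given per mouse as deposited, and the log2 fold changes are relative to that shift.

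In YAP1 KO livers, compared with WT (C57BL/6) livers, 1 of the 7 genes passed the test and was lower, *Insig1*, with no member higher. In YKTH livers, compared with WT (mixed) livers, 3 of 7 passed: *Hmgcs1* and *Lss* were higher and *Insig1* was lower. The tests used limma with Benjamini-Hochberg adjustment over all genes at 0.05, and 18.8% of the 11704 genes tested were called higher and 17.9% lower in YAP1 KO livers, while 19.2% of 11741 were called higher and 19% lower in YKTH livers. The median log2 fold change of the members was 0.21 in YAP1 KO and 0.74 in YKTH livers. At an unadjusted p under 0.05 there were 1 and 6 members, against 46.5% and 48.0% of all genes. These counts depended on the scaling. Without it, 4 members were called in YAP1 KO livers, all higher, and 6 in YKTH livers, 5 of them higher. More of all genes were then called higher too: 4390 of 11704 in YAP1 KO and 4089 of 11741 in YKTH livers, with 834 and 886 lower. Quantile normalization called 3 and 6 members. Of all genes it called 2113 higher and 2105 lower in YAP1 KO livers, and 2193 and 2174 in YKTH livers. The plot of TPM by mouse shows the values of each gene.

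**Figure D1:**
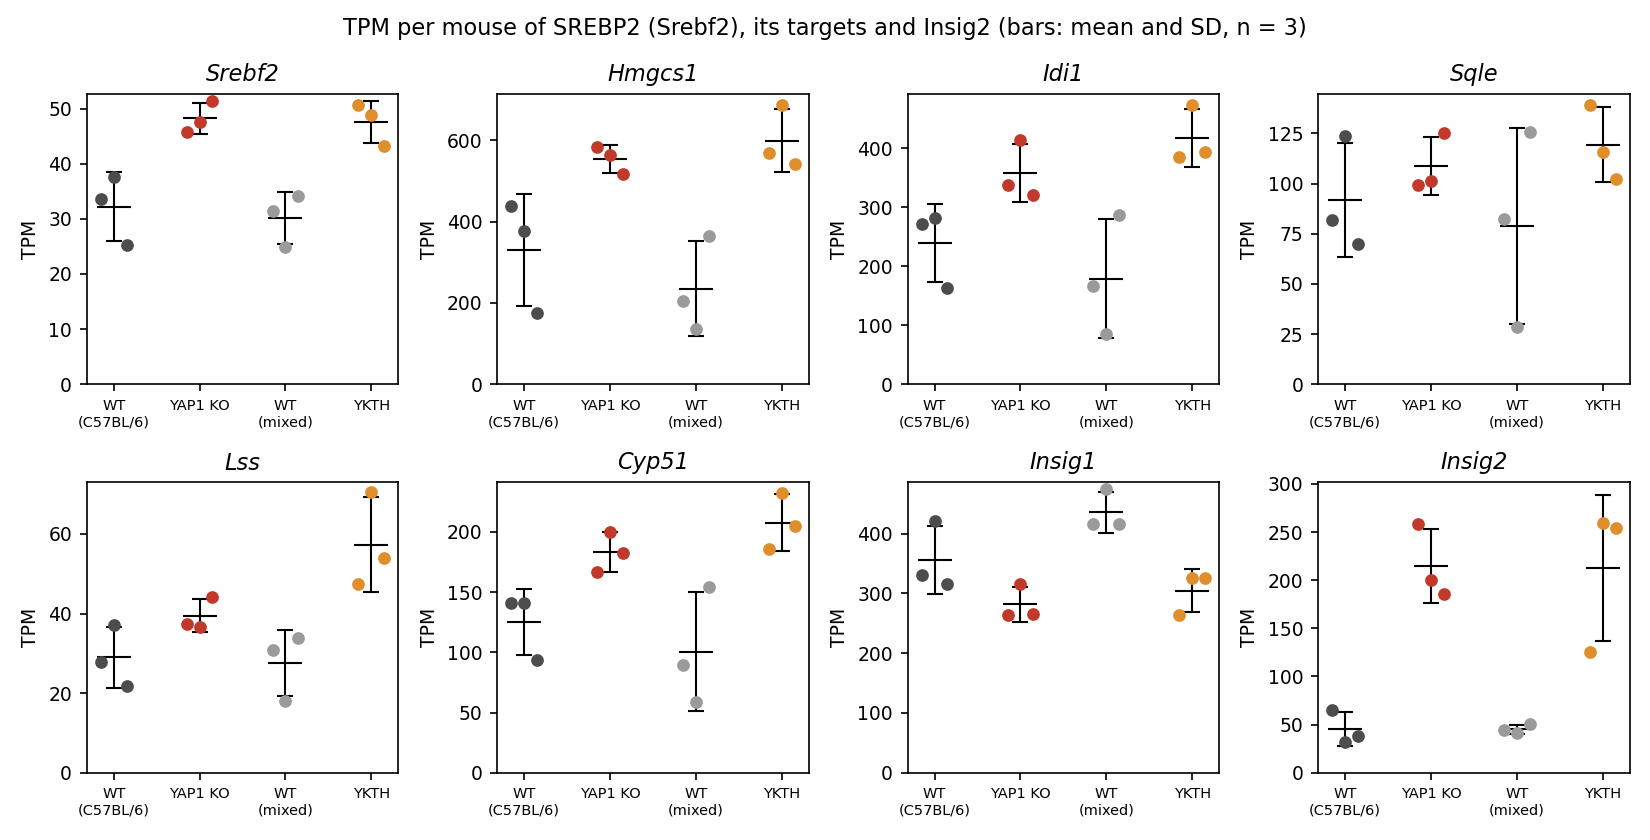
TPM as deposited (y axes, starting at 0) of *Srebf2*, its 6 target genes and *Insig2*, for 4 groups of 3 mice (x axis); points are mice and bars are mean and SD. The knockout mice lie above their WT littermates for *Srebf2*, *Hmgcs1*, *Idi1* and *Cyp51*, below them for *Insig1*, and far above them for *Insig2*, the relative of *Insig1*. In TPM as deposited, 47.5% of all genes lay above WT without overlap in YAP1 KO and 44.4% in YKTH livers, and 9.29% and 10% below.

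The transcription factor itself, *Srebf2* (ENSMUSG00000022463, chr15:82147181-82205379 on GRCm38, plus strand), gave 33.6, 37.7 and 25.3 TPM in mice LM75, LM192 and LM193, the WT (C57BL/6) littermates, and 45.8, 47.6 and 51.3 TPM in the YAP1 KO mice LM74, LM189 and LM191. It was at 31.4, 24.9 and 34.2 TPM in the WT (mixed) mice LM226, LM227 and LM230, and at 50.6, 48.8 and 43.2 TPM in the YKTH mice LM225, LM250 and LM251. The TPM of the groups did not overlap in either comparison, and the mean went from 32.2 to 48.2 TPM and from 30.2 to 47.6 TPM (exact permutation test, two-sided, p = 0.1 in both, the smallest p that 3 mice against 3 allow). On the scaled values the log2 fold changes were 0.24 ± 0.16 (SE, limma, adjusted p = 0.275) and 0.33 ± 0.13 (adjusted p = 0.0804), neither past the threshold. The scaled values of YAP1 KO and WT mice overlapped, whereas those of YKTH and WT mice did not. TPM above the WT range without overlap were seen for 4 of 7 members in YAP1 KO and 5 of 7 in YKTH livers, against 47.5% and 44.4% of all genes, so this alone is close to the background. TPM below it were seen for 1 of 7 in each, against 9.29% and 10%.

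*Hmgcs1* (ENSMUSG00000093930, chr13:119690379-119708260, plus strand) encodes the cytosolic HMG-CoA synthase, which condenses acetoacetyl-CoA with acetyl-CoA. It was at 439, 377 and 175 TPM in the WT mice LM75, LM192 and LM193 and at 583, 563 and 517 TPM in the YAP1 KO mice LM74, LM189 and LM191. In the mixed background, it was at 206, 136 and 364 TPM in LM226, LM227 and LM230 and at 567, 686 and 541 TPM in the YKTH mice LM225, LM250 and LM251. In TPM the knockout mice lay above every WT littermate in both comparisons, and the ratios of the means were 1.68 and 2.54 (exact permutation p = 0.1 in both). On the scaled values this held in YKTH livers only. The log2 fold change was 0.49 ± 0.31 (SE, limma, adjusted p = 0.249) in YAP1 KO and 1.13 ± 0.32 (adjusted p = 0.0246) in YKTH livers. Between mice, the CV of *Hmgcs1* was 41.8% in WT (C57BL/6) livers and 6.08% in YAP1 KO livers. The YKTH call was lost without LM226 (1.05), LM227 (0.81), LM250 (1.01) or LM251 (1.17), and without a filter on low values (1.13, limma adjusted p = 0.0523).

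*Idi1* (ENSMUSG00000058258, chr13:8885501-8892451, plus strand), which isomerises isopentenyl diphosphate, was at 272, 282 and 164 TPM in LM75, LM192 and LM193, and at 339, 413 and 321 TPM in LM74, LM189 and LM191. It was at 166, 85.0 and 286 TPM in LM226, LM227 and LM230 and at 385, 473 and 394 TPM in LM225, LM250 and LM251. In TPM the groups did not overlap in either comparison, and the ratios of means were 1.49 and 2.33 (exact permutation p = 0.1 in both). On the scaled values the groups overlapped in both comparisons. The log2 fold changes were 0.25 ± 0.22 (SE, limma, adjusted p = 0.404) and 1.06 ± 0.38 (adjusted p = 0.0576). In the annotation, 3 processed pseudogenes match the longest *Idi1* transcript over 22.4% to 22.6% of its length. The best-matching stretch of each has 90.6% to 100% identity. None of the 3 is among the genes with deposited values. The level of *Idi1* is uncertain to the extent that reads were split with them.

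The next steps lead from squalene to lanosterol and onward. *Sqle* (ENSMUSG00000022351, chr15:59315077-59331192, plus strand) encodes squalene epoxidase, and was at 81.9, 124 and 69.7 TPM in LM75, LM192 and LM193, and at 99.4, 101 and 125 TPM in LM74, LM189 and LM191. It was at 82.2, 28.7 and 126 TPM in LM226, LM227 and LM230, and at 139, 116 and 102 TPM in LM225, LM250 and LM251, with overlap in both comparisons (exact permutation p = 0.4 and 0.3). The log2 fold changes were -0.08 ± 0.21 (SE, limma, adjusted p = 0.792) and 0.49 ± 0.45 (adjusted p = 0.421). *Sqle* in LM227 was the lowest of the 12 mice, and the YKTH change was -0.09 without that mouse.

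*Lss* (ENSMUSG00000033105, chr10:76531588-76557138, plus strand), the lanosterol synthase, was at 27.8, 37.2 and 21.9 TPM in LM75, LM192 and LM193 and at 37.5, 36.7 and 44.3 TPM in LM74, LM189 and LM191, with overlap (ratio of means 1.36, exact permutation p = 0.2). It was at 30.8, 18.1 and 33.9 TPM in LM226, LM227 and LM230 and at 47.3, 70.4 and 54.1 TPM in LM225, LM250 and LM251, without overlap (ratio of means 2.07, exact permutation p = 0.1). The log2 fold changes were 0.11 ± 0.18 (SE, limma, adjusted p = 0.668) and 0.74 ± 0.25 (adjusted p = 0.0446). The YKTH call of *Lss* was lost without LM226 (0.80), LM227 (0.48), LM250 (0.57) or LM251 (0.74), without a filter (0.74, limma adjusted p = 0.0806) and with robust eBayes (0.74, adjusted p = 0.0549).

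*Cyp51* (ENSMUSG00000001467, chr5:4081145-4104746, minus strand), which demethylates lanosterol, was at 141, 141 and 93.7 TPM in LM75, LM192 and LM193 and at 167, 200 and 182 TPM in LM74, LM189 and LM191. It was at 89.1, 58.4 and 154 TPM in LM226, LM227 and LM230 and at 186, 232 and 205 TPM in LM225, LM250 and LM251. In TPM the knockout mice were above every littermate in both comparisons, and the ratios of means were 1.46 and 2.06 (exact permutation p = 0.1 in both). On the scaled values the groups overlapped in both comparisons. The log2 fold changes were 0.21 ± 0.19 (SE, limma, adjusted p = 0.417) and 0.82 ± 0.32 (adjusted p = 0.0725). The exons of *Cyp51* share 166 bases with *Akap9* on the opposite strand, which reached 7.98 TPM at most.

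*Insig1* (ENSMUSG00000045294, chr5:28071363-28078662, plus strand), a sterol-responsive gene whose protein retains the SCAP and SREBP complex, went the other way. It was at 330, 422 and 316 TPM in LM75, LM192 and LM193 and at 264, 315 and 266 TPM in LM74, LM189 and LM191. In the mixed background it was at 416, 475 and 415 TPM in LM226, LM227 and LM230 and at 264, 325 and 325 TPM in LM225, LM250 and LM251. Each knockout mouse was below every WT littermate, and the ratios of means were 0.791 and 0.700 (exact permutation p = 0.1 in both). The log2 fold change was -0.69 ± 0.14 (SE, limma, adjusted p = 0.00718) in YAP1 KO and -0.84 ± 0.15 (adjusted p = 0.00301) in YKTH livers. Across the alternatives the change ran from -0.81 to -0.33 in YAP1 KO and from -0.92 to -0.46 in YKTH livers, and the YAP1 KO call was lost without scaling (-0.33, limma adjusted p = 0.0710).

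**Figure D2:**
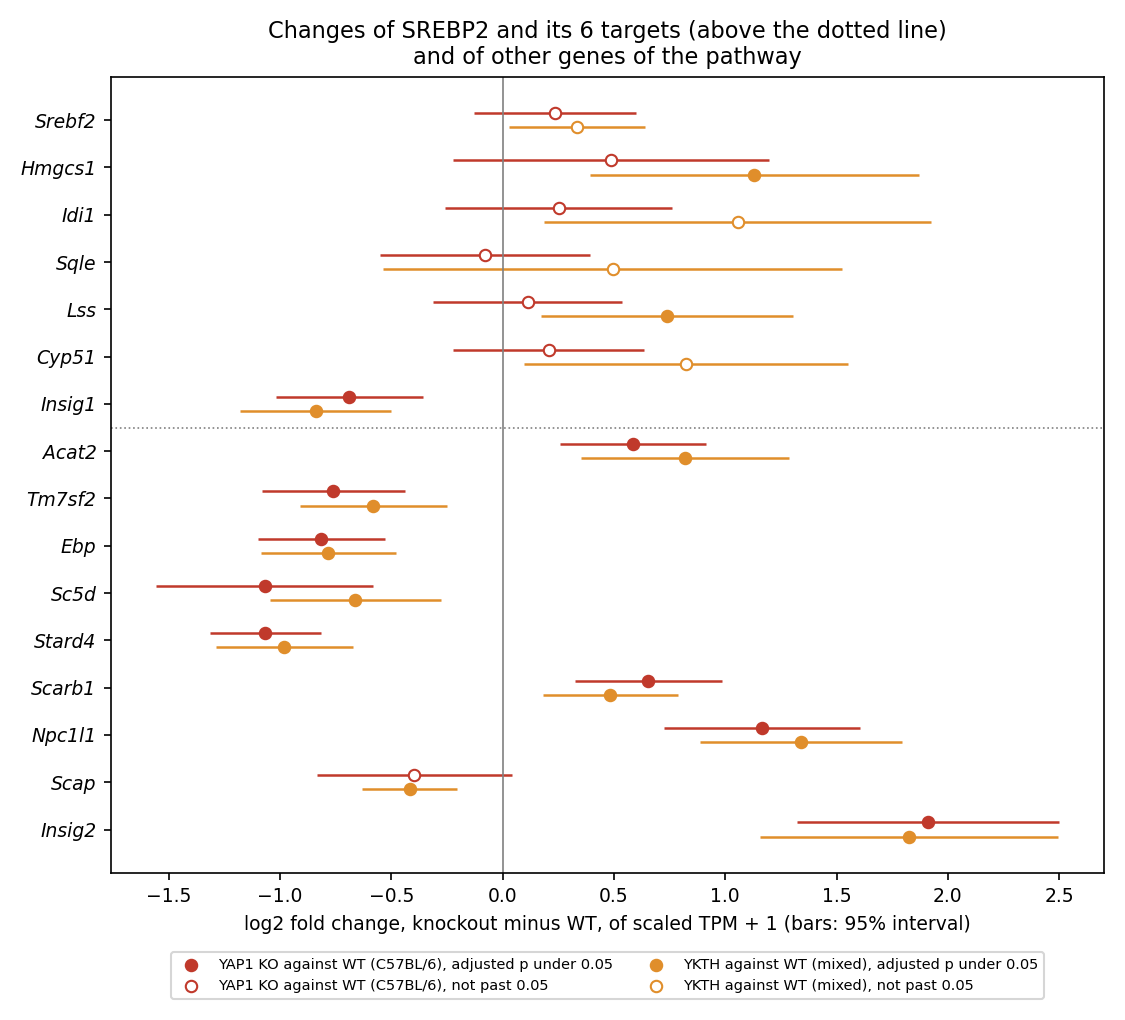
Log2 fold change, knockout minus WT, of log2(scaled TPM + 1) (x axis) with 95% intervals, for SREBP2 and its 6 targets (above the dotted line) and other genes of the pathway (below it); filled points passed an adjusted p of 0.05. *Insig1* and *Stard4* lie left of 0 and *Insig2* right of 0 in both comparisons, while the 5 enzymes among the members lie mostly right of 0 with wide intervals.

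The WT groups did not differ beyond the test for any member: 0 of 7 were called between WT (mixed) and WT (C57BL/6), against 0.216% of 11126 genes, with 0 members at an unadjusted p under 0.05. The members' WT changes ran from -0.60 for *Idi1* to 0.24 for *Insig1*. The difference between the knockout changes, YAP1 KO minus YKTH, was called for 0 of 7 members and for 0.0576% of 12159 genes by limma, and 0 members had an unadjusted p under 0.05. These differences ran from -0.81 (95% interval -1.90 to 0.27) for *Idi1* to 0.14 (-0.33 to 0.61) for *Insig1*, and *Hmgcs1* gave -0.65 (-1.75 to 0.44). The members' YKTH changes were therefore not shown to differ from those in YAP1 KO livers. The models also differed in *Yap1*, whose mean was 2.44 TPM in YAP1 KO and 9.77 TPM in YKTH livers. Of the 2 targeted genes, 1 was called lower in the difference between the knockout changes. Ordered by mean TPM, *Hmgcs1*, *Idi1*, *Sqle*, *Lss* and *Cyp51* ran WT (mixed), WT (C57BL/6), YAP1 KO, YKTH. The ranges of the WT groups overlapped for all 7 members, and the YAP1 KO and YKTH ranges overlapped for all but *Lss*.

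The WT livers varied more than the knockout livers: the SD of log2 scaled values was larger in WT mice than in their knockout littermates for 6 of 7 members in both comparisons, all but *Insig1*, whereas 47.3% of all genes varied more in WT (C57BL/6) than in YAP1 KO livers and 52.4% more in WT (mixed) than in YKTH livers. The median SD of the members was 0.35 in WT (C57BL/6), 0.21 in YAP1 KO, 0.72 in WT (mixed) and 0.20 in YKTH livers. LM193 was the lowest of its group for 7 of 7 members and LM227 for 6 of 7, all but *Insig1*, and LM230 was the highest of the WT (mixed) mice for 6 of 7, in TPM and in scaled values alike. LM74 was the lowest YAP1 KO mouse for 6 of 7 members in scaled values but for 4 of 7 in TPM. The plot of deviations by mouse shows the 6 members other than *Insig1* low together in LM193 and LM227 and high together in LM230, while in the knockout groups, where the deviations were smaller, the members differed in their order of mice.

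**Figure D3:**
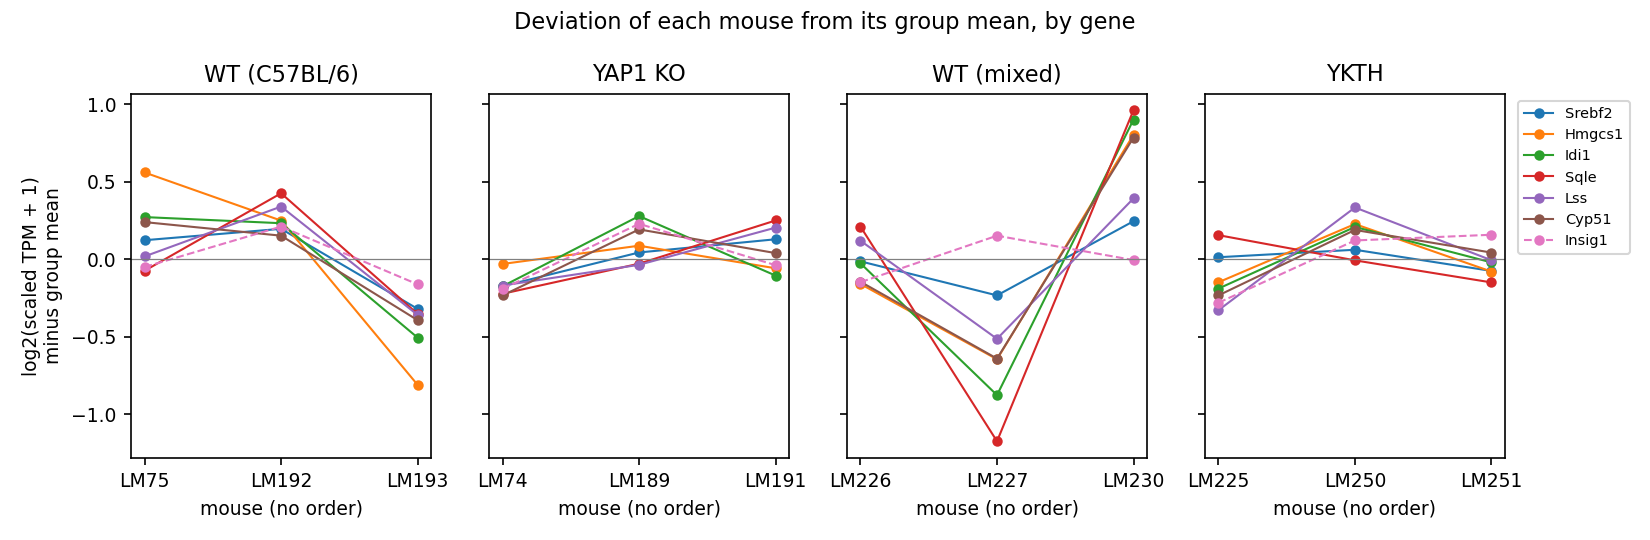
Deviation of each mouse from its group mean in log2(scaled TPM + 1) (y axis), for 3 mice per group (x axis, no order); lines join the values of 1 gene and *Insig1* is dashed. In WT (mixed) livers *Sqle*, *Idi1*, *Hmgcs1* and *Cyp51* are low in LM227 and high in LM230, and the knockout groups spread less.

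After group means were subtracted, Pearson r between pairs of the 6 members other than *Insig1* ran from 0.73 to 0.98 over the 12 libraries, and r between *Insig1* and them from -0.11 to 0.32. These points share libraries and scaling, and the correlations are descriptions. The genes most like the mean of the members on that scale were *Fdft1* (squalene synthase, r = 0.97), *Snx17* (0.94), *Nsdhl* (a sterol demethylation enzyme, 0.92), *Fdps* (farnesyl diphosphate synthase, 0.92), *Dhcr7* (an enzyme of the last steps, 0.92), *Oma1* (0.91), *Dnajb11* (0.90), *Tsen54* (0.90), *Tm9sf1* (0.89) and *Csnk2b* (0.89). Of the 16 other cholesterol synthesis enzymes of the list, 11 had r over 0.8, and 4 were among the 10 genes most like the members. With group means kept, 6 were among them: *Nsdhl*, *Fdps*, *Dhcr7*, *Pmvk*, *Mvk* and *Fdft1*. The other 4 were *Prim1* (0.87), *Aplp1* (0.86), *Rdh11* (0.85) and *Tmem167* (0.83).

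Of the 16 other enzymes of cholesterol synthesis, 2 rose and 3 fell in YAP1 KO livers and 1 rose and 4 fell in YKTH livers (median log2 fold change -0.05 and 0.11, beside -0.04 for all genes in both). *Acat2*, which makes acetoacetyl-CoA, rose by 0.59 ± 0.14 (SE, limma, adjusted p = 0.0139) in YAP1 KO and by 0.82 ± 0.20 (adjusted p = 0.0142) in YKTH livers, and the calls were lost without LM189 (0.52), or without LM250 (0.68) or LM251 (0.80). Late in the pathway, *Ebp*, the sterol isomerase, fell by 0.81 and 0.78 on the log2 scale, *Sc5d*, a sterol desaturase, by 1.07 and 0.66, and *Tm7sf2*, a sterol reductase, by 0.76 and 0.58 (limma, adjusted p = 0.00168 to 0.0152). The YKTH call of *Sc5d* was lost without LM226 (-0.59) or LM251 (-0.67), without scaling (-0.34) and with quantile normalization (-0.31). That of *Tm7sf2* was lost without LM251 (-0.52), without scaling (-0.26) and with quantile normalization (-0.31).

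Of 10 genes of sterol uptake and transport, 4 rose and 1 fell in YAP1 KO livers and 3 rose and 3 fell in YKTH livers. *Stard4*, a sterol carrier and a known SREBP2 target, was at 61.6, 64.4 and 67.5 TPM in LM75, LM192 and LM193 and at 36.9, 39.1 and 40.8 TPM in LM74, LM189 and LM191. It was at 73.1, 58.8 and 73.9 TPM in LM226, LM227 and LM230 and at 52.1, 40.2 and 37.2 TPM in the YKTH mice LM225, LM250 and LM251. It fell by 1.07 and 0.98 on the log2 scale (limma, adjusted p = 0.000241 and 0.000942), without overlap. *Scarb1*, the HDL receptor, rose by 0.66 and 0.48 (adjusted p = 0.00887 and 0.0205), and the YKTH call was lost without LM226 (0.46), LM230 (0.38), LM250 (0.49) or LM251 (0.47). *Npc1l1*, a sterol importer, was at 1.54 to 1.89 TPM in YAP1 KO and 1.21 to 2.39 TPM in YKTH livers, and at most 0.356 TPM in WT livers.

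Of 11 genes of SREBP processing and sterol sensing, 1 rose and 1 fell in YAP1 KO livers, and 2 rose and 3 fell in YKTH livers. *Insig2*, whose protein like that of *Insig1* retains SCAP, was at 65.5, 32.3 and 38.6 TPM in LM75, LM192 and LM193 and at 258, 200 and 186 TPM in LM74, LM189 and LM191. It was at 43.9, 41.1 and 50.4 TPM in LM226, LM227 and LM230 and at 125, 260 and 254 TPM in LM225, LM250 and LM251. The ratios of mean TPM were 4.73 and 4.72 (exact permutation p = 0.1 in both), and the log2 fold changes 1.91 ± 0.25 (SE, limma, adjusted p = 0.000903) and 1.82 ± 0.29 (adjusted p = 0.00194). *Insig2* was called under all 13 alternatives in each comparison. *Scap*, the escort, gave -0.40 ± 0.19 (adjusted p = 0.138) in YAP1 KO and -0.42 ± 0.09 (adjusted p = 0.00901) in YKTH livers, and the YKTH call was lost without scaling (-0.10), with quantile normalization (-0.25) and with all 12 libraries in 1 fit (-0.42).

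Further along the fate of cholesterol, 2 of 6 genes of esterification and hydrolysis rose and 2 fell in YAP1 KO livers, as did 2 and 2 of the 5 tested in YKTH livers. *Soat1*, which esterifies cholesterol, rose by 0.70 and 0.77, *Lipa*, the lysosomal acid lipase, rose by 0.77 and 0.49, and *Nceh1*, a cholesteryl ester hydrolase, fell by 1.15 and 1.18 on the log2 scale (limma, adjusted p = 0.000111 to 0.0100). The level of *Soat1* was low, at 1.29 to 1.54 TPM in WT (C57BL/6) and 2.98 to 4.89 TPM in YAP1 KO livers. It was at 1.58 to 2.01 TPM in WT (mixed) and 3.98 to 5.22 TPM in YKTH livers. *Soat2*, of the same list, was not called in YAP1 KO livers (0.02, limma adjusted p = 0.946) and was named after its value was seen. Of 5 tested genes of oxysterol and bile acid synthesis, 4 fell in YAP1 KO and 5 in YKTH livers, with medians of -1.40 and -1.59. *Cyp7b1*, an oxysterol hydroxylase, fell by 2.09 and 1.98 (adjusted p = 0.000387 and 0.000642). Of 8 LXR receptors and targets, which answer to oxysterols, 1 rose and 3 fell, and 1 rose and 4 fell. *Abcg5* and *Abcg8*, which together export sterols into bile, fell by 1.41 and 1.57 in YAP1 KO livers and by 1.71 and 1.75 in YKTH livers (adjusted p = 2.84e-05 to 0.000157).

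Of the 16 genes of SREBP1 and fatty acid synthesis, 1 rose and 7 fell in YAP1 KO livers and 0 rose and 9 fell in YKTH livers (medians -0.44 and -0.83). *Srebf1*, which encodes SREBP1, fell by 1.10 and 1.74 and *Thrsp*, a lipogenic gene, by 3.13 and 3.45 on the log2 scale (limma, adjusted p = 0.000103 to 0.00266). Of the 11 tested clock genes, 2 rose and 6 fell in YAP1 KO and 2 rose and 7 fell in YKTH livers. *Arntl*, the gene of BMAL1, rose by 2.89 and 2.41, and *Per3*, a period gene, fell by 3.09 and 2.63 (adjusted p = 0.00056 to 0.0102). Among YKTH mice LM225 stood apart, with *Arntl* at 2.22 TPM against 16.4 and 12.7 TPM in LM250 and LM251, and *Per3* at 14.6 TPM against 1.26 and 2.09 TPM. LM225 was also the lowest YKTH mouse for 5 of 7 members in scaled values, and 3 members were called without it, as with it. Cholesterol synthesis genes are known to follow the daily rhythm and feeding, and the time of tissue collection is not given in the sources used here. Of 12 fasting and feeding genes, 1 rose and 4 fell in each comparison, and *Igfbp1*, an insulin-repressed gene, rose by 4.01 and 3.50 (adjusted p = 0.000736 and 0.0042). The part of rhythm and feeding in the members' values was not tested.

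Whole liver mixes cell types, and a fall of a transcript from fewer cells cannot be told apart from less RNA per cell. The summed TPM of 10 macrophage and leukocyte markers was 226 to 278 in WT (C57BL/6), 744 to 1145 in YAP1 KO, 192 to 380 in WT (mixed) and 868 to 991 in YKTH livers, and 10 of 10 rose in both comparisons. The 10 stellate cell and fibroblast markers summed to 146 to 171, 446 to 583, 129 to 164 and 370 to 470 TPM, with 6 of 10 higher in both and 1 lower in YAP1 KO livers, *Lrat* (-0.84, limma adjusted p = 0.00991), which marks quiescent stellate cells and was named after its value was seen. The 10 biliary markers summed to 37.1 to 65.5, 351 to 775, 50.9 to 68.5 and 132 to 243 TPM, with 3 of 6 tested higher in both and 1, *Epcam*, lower in YKTH livers (-1.48, limma adjusted p = 0.00118). *Epcam* was not called in YAP1 KO livers (-0.35, limma adjusted p = 0.441). *Spp1* alone made up 303 to 725 TPM of the YAP1 KO sums and 84.4 to 208 TPM of the YKTH sums. By CK19 staining, the authors found no intrahepatic ducts in adult mice of either model, so these sums are not a measure of ducts. The 10 endothelial markers summed to 126 to 146, 129 to 179, 162 to 184 and 148 to 199 TPM, with 1 higher and 3 lower in YAP1 KO and 2 higher and 3 lower in YKTH livers. The 10 hepatocyte markers summed to 101374 to 113249 TPM in WT (C57BL/6), 77438 to 86940 in YAP1 KO, 93032 to 115217 in WT (mixed) and 74306 to 90926 in YKTH livers, with 5 of 10 lower in both. The part of cell composition in the members' values was not tested.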

How the data were processed

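RNA from frozen whole livers was sequenced as paired-end reads. With CLC Genomics Workbench 20.0.3 the authors mapped them to GRCm38.p6, and they deposited TPM per gene and mouse; their own edgeR comparisons (fold changes, p-values and false discovery rates) are in the same tables and were not used. TPM keep no depth, so the spread between 3 mice is the only error, and whether it includes technical differences is not given. No 2 libraries had identical values.

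TPM were divided by an unweighted trimmed mean of log ratios (from each end, 30% of the ratios and 5% of the levels were left out), 1 was added and log2 taken. The test, run on genes that reached 1 TPM in 3 libraries or more, was that of limma (version 3.58.1, R 4.3.3, eBayes with trend, Benjamini-Hochberg, 0.05, two-sided). Each knockout was fitted with its own WT, and the difference between knockouts over 12 libraries. Steps were tested on simulated data with 200 changed genes. Single values used exact permutation tests (scipy 1.17.1). Transcripts were compared with blastn 2.17.0 against GENCODE M21 at 90% identity over 20% of the length, a limit set after a limit of 30% had missed the *Idi1* pseudogenes.

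The members and 15 gene lists were chosen with earlier results of these data known. Named were the members, of other lists up to 4 genes with the largest changes past the threshold or pathway genes, the 10 genes most like the members, and the targeted genes. Some genes that this rule names are not reported here, and they remain in the counts and medians of their lists. Alternatives were a pseudocount of 0.1, no filter, 5 TPM, no scaling, quantile normalization, robust eBayes, all 12 libraries in 1 fit and each mouse left out.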

Additional observations from a re-analysis of the deposited data

How the results depend on the processing

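No paired analysis was run, because the sources used here do not give which mice shared a litter. The number of members called in YAP1 KO livers was 1, and became 4 (4 higher, 0 lower) without scaling and 3 (2 higher, 1 lower) with quantile normalization. It stayed at 1 when each mouse was left out. In YKTH livers it was 3, and became 1 without a filter, 6 without scaling, 6 with quantile normalization, 5 with all 12 libraries in 1 fit, 2 with robust eBayes and 1 to 6 when each mouse was left out: 1 without LM226, LM227, LM250 or LM251 and 6 without LM230. Over all genes in YKTH livers, 4089 were called higher without scaling against 2253 with it, and in YAP1 KO livers 4390 against 2202. With quantile normalization 2193 were called higher in YKTH livers, with robust eBayes 2254 and without a filter 2427 of 16497. All 12 libraries in 1 fit gave 2326. With each mouse left out, this ran from 1337 without LM251 to 2041 without LM230. The cause of the changes in the members' count was not tested. The count was 0 under every alternative for the difference between the knockouts and for the WT groups.

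The log2 fold changes compared across the alternatives were those of the members in every comparison and of other named genes in the knockout comparisons. Of these, 897 kept their direction and side of the threshold, 29 were no longer past it, 19 newly passed it and 12 reversed. These counts therefore do not describe the members' knockout changes alone. Among members called in YKTH livers, *Hmgcs1* passed under 8 of 13 alternatives, *Lss* under 7 and *Insig1* under 13. None of the reversed values passed the threshold in either setting. In YAP1 KO livers these were *Sqle* (0.28 without scaling, 0.11 with quantile normalization, -0.26 to 0.13 with mice left out, positive without LM192 or LM74), and, with mice left out, *Lss* (-0.068 to 0.28) and *Idi1* (-0.0010 to 0.39), both negative without LM193. In YKTH livers with mice left out, *Sqle* ran from -0.093 without LM227 to 0.98. With mice left out, the difference between the knockouts ran from -0.27 to 0.0080 for *Srebf2* and from -1.06 to 0.0043 for *Sqle*, positive without LM227. The WT difference ran from -0.94 to 0.11 for *Sqle*, positive without LM227, and from -0.33 to 0.11 for *Lss*, positive without LM227 or LM192.

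TPM give no read depth, so the counting error of low genes such as *Npc1l1* is unknown.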
